A study of Schizosaccharomyces pombe with 24 samples.

Results

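The transcripts of fission yeast (Schizosaccharomyces pombe) lacking both Gcn5 and Elp3 were compared with those of wild type. The arrays were chosen by their strain labels, and 2 of Δgcn5 Δelp3 and 3 of wild type were used of 24 arrays in 9 strains. All 4999 probe sets other than controls entered the comparison, and each probe set, a group of short oligonucleotides for 1 transcript, is called a feature. The study asked whether histone acetyltransferases (HATs) act redundantly on gene expression. All cells grew asynchronously at 30 °C without a drug or a starvation step named in the labels. In Δgcn5 Δelp3 both genes are replaced by kanamycin-resistance cassettes, in an h+ strain with leu1-32, ura4-D18 and ade6-M210 mutations, and Δelp3 is h+ with leu1-32, ura4-D18 and an ade6 mutation. Δmst2 Δelp3 is h+ and has ura4+ in place of mst2. The study lists wild-type stocks of both mating types with the same kinds of marker mutations, and its Δgcn5 single mutants are h-. Its figure that compares array results of the mutants names the h+ wild-type stock, which also has a can1-1 mutation. The study lists 1 strain of Δgcn5 Δelp3, so a change particular to that strain and one tied to the deletions cannot be told apart. The labels put every wild-type array on the first of 2 experiment dates and both Δgcn5 Δelp3 arrays on the second, so the strain and the date cannot be told apart in this comparison. Δelp3 and Δmst2 Δelp3, with 3 arrays each, were also on the second date, and each of them gives a comparison with Δgcn5 Δelp3 that holds no difference of date.

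Gcn5 is the catalytic subunit of SAGA, a transcriptional coactivator that acetylates histone H3 near promoters. Elp3 is the catalytic subunit of Elongator, which was found with elongating RNA polymerase II in budding yeast and is needed for the modification of wobble uridines in transfer RNAs. Both belong to the GNAT family of HATs, and in fission yeast SAGA subunits are known for their part in the switch from growth to mating and meiosis under starvation.

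The signals are log2 units, so a difference of 1 unit is a doubling, and each change is a difference of group means in these units with its standard error after ±. The gcn5 signal was 11.05, 10.81 and 10.58 in wild type and 5.24 and 5.15 in Δgcn5 Δelp3. The elp3 signal was 11.75, 12.02 and 11.47 in wild type and 5.95 and 5.93 in Δgcn5 Δelp3. Both transcripts lay near the low end of the scale in both double-mutant arrays, as the labels say, and far from every wild-type array. The change was -5.62 ± 1.36 for gcn5 (limma, adjusted p = 0.00752) and -5.81 ± 0.24 for elp3 (adjusted p = 8.1e-12). The wide error of gcn5 comes with the arrays labelled Δgcn5 replicate 2 and Δmst2 replicate 2, in which gcn5 was 10.93 and 5.43, the reverse of their labels. These arrays enter the shared estimate of the spread, and without both of them the gcn5 change was -5.62 ± 0.13. Wild-type replicate 2 also stood apart, with a ura4 signal of 12.85, while the remaining wild-type arrays gave 7.40 and 7.45 and those of Δgcn5 Δelp3 gave 7.45 and 7.32. Of all features 13.2% rose and 9.6% fell when these 3 doubted arrays were left out, compared with 12.5% and 9% when all were used (adjusted p under 0.05). When only Δgcn5 replicate 2 and Δmst2 replicate 2 were left out, the shares were 15.6% and 11.8%.

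**Figure D1:**
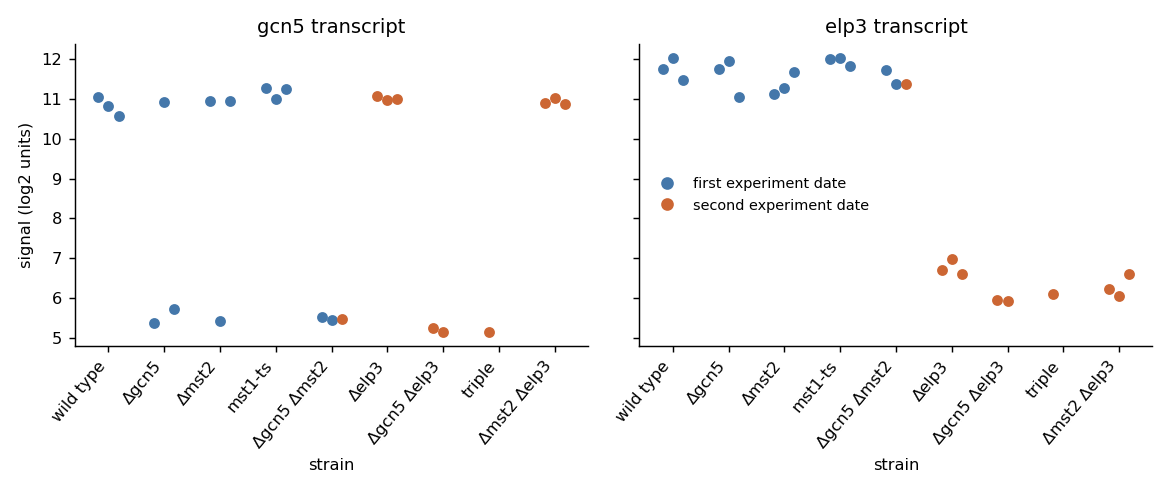
Signal of the gcn5 (left) and elp3 (right) transcripts on each of the 24 arrays, in log2 units, by strain, with each point 1 array coloured by experiment date. Both Δgcn5 Δelp3 arrays are low in both panels, and 1 array labelled Δgcn5 and 1 labelled Δmst2 go against their labels for gcn5 (triple, Δgcn5 Δelp3 Δmst2; mst1-ts, the mst1 temperature-sensitive strain).

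The arrays of Δgcn5 Δelp3 were closer to each other (Pearson r = 0.997 over features, SD of the difference 0.14 log2 units) than any other replicate pair of the series, and wild-type pairs had r from 0.965 to 0.985. The methods describe the replicates as independent isolates. The p-values measure only the spread between replicate arrays, pooled over all strains of the series. Probe sets for 18S and 28S ribosomal RNA, which serve as controls, read 13.39 to 14.95 in Δgcn5 Δelp3 and 7.49 to 11.88 in wild type. They read 12.95 to 14.86 in Δelp3 and 12.68 to 14.89 in Δmst2 Δelp3, and in the strain found on both dates, Δgcn5 Δmst2, 7.67 to 11.95 on the first date and 11.91 to 14.49 on the second. The 18S and 28S signal thus moved with the date as well as with the strain, and its part in the results was not tested. The spread of signals within an array was also narrower in Δgcn5 Δelp3 (SD 1.86 and 1.87) than in wild type (1.96 to 1.98).

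A total of 41 features were up-regulated and 23 down-regulated in Δgcn5 Δelp3 by the combined threshold, a 3.25-fold difference together with an adjusted p under 0.05 (0.82% and 0.46% of all features), and in each of them the double-mutant arrays lay outside the wild-type range. Of the 41 up-regulated features 23 carried a gene symbol, from 21 genes, and of the 23 down-regulated features 10 did, gcn5 and elp3 among them. The named rises were mostly genes of meiosis and spore formation, subtelomeric genes and transporters. The 8 named falls beside the deleted genes were mug15 and mug72, the iron and siderophore transporter genes fip1 and str1, the metallothionein gene zym1, the sulfiredoxin gene srx1 and the transporter genes pgt1 and isp4. By adjusted p alone, 623 features rose and 450 fell (12.5% and 9%). Without 1 of the double-mutant arrays these counts were 225 or 239 and 118 or 152, and 11 or 9 features were down-regulated, for replicates 1 and 2 in turn. With the date as a covariate 108 rose, 26 fell and 4 were down-regulated. A total of 1573 features lay above and 1451 below the wild-type range (31.5% and 29%). When the deposited values were quantile normalized again, 31 features were called in each direction, and all 41 and all 23 still passed the adjusted p.

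Most features with a signal from 6 to 8 were higher in the double mutant. Features with a mean signal from 6 to 7 had a median change of 0.48 and those from 7 to 8 a median of 0.37, whereas the median of all features was 0.02 and that of features from 12 to 13 was -0.11. The shares that rose were 41% from 6 to 7 and 33.6% from 7 to 8. After a further quantile normalization the same classes had medians of 0.08 and -0.03. The shift was also present in Δelp3 (0.49 and 0.26), which shares the wild-type arrays, while the second-date array of Δgcn5 Δmst2 lay -0.03 and -0.04 from its first-date arrays in these classes. Lists of dim genes are therefore given beside the values of features of their own level.

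**Figure D2:**
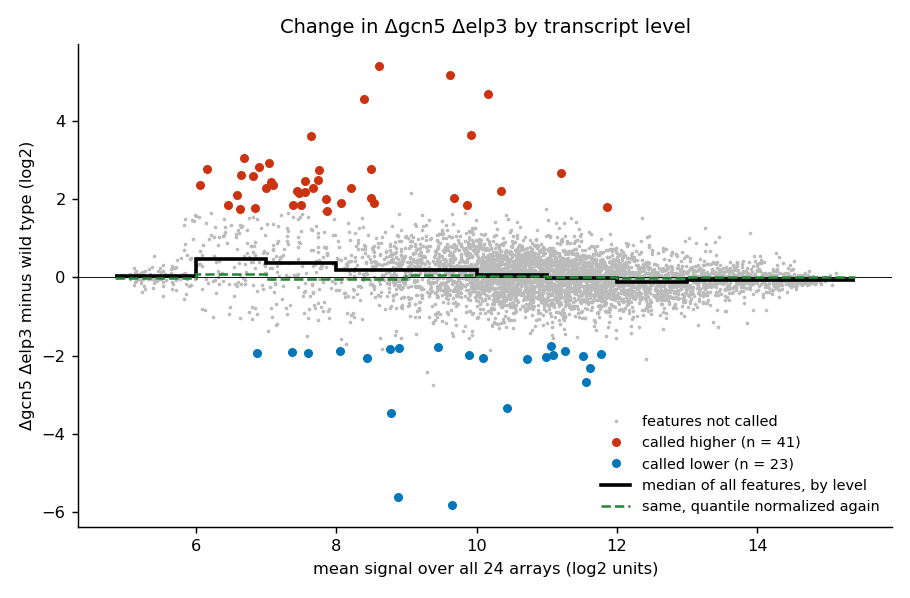
Change of each of the 4999 features in Δgcn5 Δelp3 against wild type (log2) by its mean signal over all 24 arrays (log2 units). Red and blue points are the 41 features called higher and the 23 called lower, and the black steps, the median of all features by level, stand at 0.48 and 0.37 for mean signals of 6 to 8, where the dashed steps after a further quantile normalization stand at 0.08 and -0.03.

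Genes of meiosis and sporulation formed the largest named group of rises. Of 48 measured members of a textbook list 24 rose and none fell, with a median change of 0.52 and a range from -0.47 to 2.62, and 6 passed the fold threshold. The members had a median signal of 7.61, so the shares of 33.6% and 41% of all dim features that rose are the background nearest to their 50%. The change of 35 of the 48 exceeded the median of features of the same level. After a further quantile normalization 16 rose and 1 fell, with a median of 0.24.

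The spread within the meiotic list was wide, and its strongest members stood well outside the wild-type range. The signal of mcp3, which encodes a meiotic coiled-coil protein, was 5.62, 5.88 and 5.67 in wild type and 8.38 and 8.31 in Δgcn5 Δelp3. All wild-type arrays were low and both double-mutant arrays were clearly higher, a change of 2.62 ± 0.26 (adjusted p = 3.9e-06). The signal of spo6, which encodes the regulatory subunit of a kinase needed for meiosis II and sporulation, was 6.76, 6.43 and 6.51 in wild type and 9.07 and 8.98 in the double mutant. The groups did not overlap, and the change was 2.46 ± 0.24 (adjusted p = 3.7e-06). The signal of mei4, which encodes the forkhead transcription factor that drives middle meiotic genes, was 7.08, 6.82 and 7.66 in wild type and 9.22 and 9.16 in the double mutant. It rose by 2.00 ± 0.32 (adjusted p = 3.6e-04). The recombination gene mde2 rose by 2.27 ± 0.36 and mpf1, which encodes a meiotic Puf-domain protein, by 1.89 ± 0.29.

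Other early and middle meiotic genes rose less or did not pass the test. The recombination genes rec6 (1.32), rec12 (0.96) and rec11 (0.83), the axis gene hop1 (0.97) and the cohesin gene rec8 (1.02) rose, whereas rec10 (0.45), rec15 (0.31), rec7 (0.30) and rec14 (0.18) did not pass. The meiotic inducer mei3, which encodes the inhibitor of the Pat1 kinase, stood at -0.21 ± 0.20 (adjusted p = 0.493), and mes1, an inhibitor of the anaphase-promoting complex at meiosis II, stood at -0.47 ± 0.27 (adjusted p = 0.233). The genes spo3 (0.06), spo15 (0.20) and spo20 (-0.20), which act in forespore membrane formation, did not pass the threshold. In Δgcn5 Δelp3 the rises thus took in 24 of the members, and the other 24 lay from -0.47 to 0.59.

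The mug genes, found in a screen of meiotically up-regulated genes and mostly of unknown function, moved in both directions. Of 91 measured members 21 rose and 5 fell (23.1% and 5.49%), where 18.1% and 5.28% of all features with a signal from 8 to 9, the level of the list median, did. The median was 0.18, and 43 of them exceeded the median of features of their level. The largest rise was mug97, at 6.67, 6.55 and 6.35 in wild type and 8.75 and 8.69 in Δgcn5 Δelp3. Both double-mutant arrays were above all wild-type arrays (2.20 ± 0.21, adjusted p = 2.8e-06). The rises of mug128, mug131 and mug126 were 1.91, 1.85 and 1.76. The largest fall of any gene beside gcn5 and elp3 was mug15, at 10.82, 9.88 and 10.32 in wild type and 6.97 and 6.80 in the double mutant. Its groups were far apart (-3.46 ± 0.83, adjusted p = 0.00698), and mug72 fell as well (-1.80 ± 0.36). After a further quantile normalization 14 mug genes rose and 7 fell, and the median was -0.04.

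Of the 7 septins, filament-forming GTP-binding proteins of the division site, 2 rose, 1 fell and 4 did not pass. The shares of 28.6% and 14.3% stand beside 12.5% and 9% of all features. The 2 that rose were spn5 and spn6, whose products form septin rings in meiotic cells during spore formation. The spn6 signal was 6.06, 6.01 and 6.45 in wild type and 8.94 and 8.88 in Δgcn5 Δelp3, with no overlap (2.74 ± 0.71, adjusted p = 0.0111). The spn5 signal was 5.99, 5.56 and 6.22 in wild type and 8.32 and 8.69 in the double mutant, again with no overlap (2.58 ± 0.48, adjusted p = 0.00112). The vegetative septin gene spn4 fell by 0.52 on the log2 scale (± 0.12), while spn1 (-0.15), spn2 (0.01) and spn3 (-0.06) did not pass. Nor did spn7 (0.29 ± 0.20, adjusted p = 0.322).

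Genes of mating were changed to a small extent. Of 11 genes of cell and nuclear fusion 4 rose, namely prm1 (0.93), cfr1 (0.81), kms1 (0.80) and tht1 (0.79), and none fell. This 36.4% stands beside 12.5% of all features and 19.9% of those with a signal from 9 to 10, the level of the list median. The median change was 0.42, and after a further quantile normalization tht1 no longer passed (0.56, adjusted p = 0.0741). Of 15 pheromone signalling genes 1 rose and 2 fell (6.67% and 13.3%, beside 12.5% and 9% of all features). The riser was byr2, which encodes the MAP kinase kinase kinase of the pathway (1.34 ± 0.29), and the fallers were ras1, which encodes the GTPase upstream of it (-0.78 ± 0.10), and gpa1, which encodes the G protein alpha subunit (-0.83 ± 0.27). The master regulators ste11 (0.67, adjusted p = 0.428) and mei2 (0.23, adjusted p = 0.884) did not pass the test.

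The M-factor genes mfm1 and mfm2, which mark M cells, read 5.58 to 6.84 on all 5 arrays, among the lowest signals in both strains, whereas they read 10.26 to 14.01 in the Δgcn5 arrays that matched their label. Of the 7 measured M-cell genes none passed the test, and the largest difference was in mam2, which encodes the receptor of P-factor, at 7.75, 7.79 and 7.78 in wild type and 9.97 and 9.87 in Δgcn5 Δelp3. The groups did not overlap, but the change of 2.15 ± 0.81 had an adjusted p of 0.0657, and without Δgcn5 replicate 2 and Δmst2 replicate 2 the adjusted p was 4.7e-06. Of the 4 P-cell genes, map3, which encodes the receptor of M-factor, rose (0.87 ± 0.19, adjusted p = 0.00337), and map1, map2 and map4 (0.66, -0.05 and 0.16) did not pass.

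**Figure D3:**
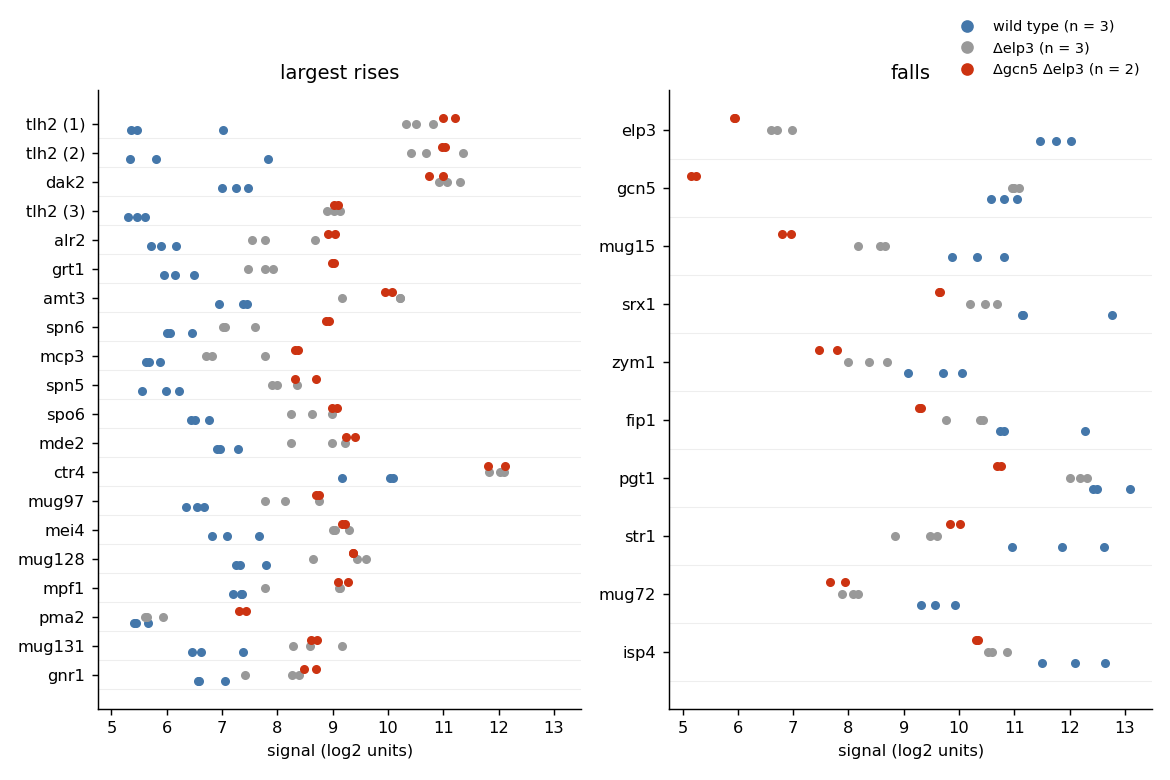
Signal on each array (log2 units) of the features with the largest named rises (left) and all named falls (right) in wild type (3 arrays), Δelp3 (3 arrays) and Δgcn5 Δelp3 (2 arrays), with the 3 called features of tlh2 numbered. The lines were chosen among called features whose double-mutant arrays lie outside the wild-type range, which held for all called features. For pma2, whose double-mutant arrays read 7.43 and 7.30, the Δelp3 arrays read 5.61 to 5.93, close to wild type.

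Genes near the chromosome ends gave some of the largest rises. The helicase gene tlh2, which lies next to a telomere and belongs to a family of nearly identical copies that share probes, had 3 called features of 4. On the one with the largest change the signal was 5.36, 7.01 and 5.46 in wild type and 11.21 and 11.00 in Δgcn5 Δelp3. Wild-type replicate 2, the array that stood apart for ura4, was the highest of the 3, and the change was 5.16 ± 1.02 (adjusted p = 0.00182). The other 2 features rose by 4.68 and 3.60, and which copies of the family contributed cannot be told apart.

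Also among subtelomeric genes, dak2, which encodes a dihydroxyacetone kinase, read 7.46, 7.25 and 7.00 in wild type and 11.00 and 10.75 in the double mutant. This rise of 12.5-fold (3.64 ± 0.35, adjusted p = 3.4e-06) was not shared by dak1 (-0.53 ± 0.22, adjusted p = 0.0918), the other dihydroxyacetone kinase. The alanine racemase gene alr2 read 5.89, 5.72 and 6.17 in wild type and 8.91 and 9.04 in the double mutant, and rose by 3.05 ± 0.22 (adjusted p = 4.9e-08). The transcription factor gene grt1 read 6.15, 5.95 and 6.49 in wild type and 8.99 and 9.03 in the double mutant (2.81 ± 0.39, adjusted p = 8.1e-05). Of 65 measured genes among the 60 nearest to each end of chromosomes I and II 9 rose and 3 fell. These 4 genes were the members called up and the glutathione transporter gene pgt1 the member called down. The list median was 0.09, and those shares (13.8% and 4.62%) were near the 12.5% and 9% of all features.

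Some genes of metal transport rose and others fell. The copper transporter gene ctr4 read 10.09, 10.03 and 9.17 in wild type and 12.11 and 11.81 in Δgcn5 Δelp3, with both double-mutant arrays higher (2.20 ± 0.29, adjusted p = 6.4e-05). Its partner ctr5 had a change of 0.65 ± 0.23 (adjusted p = 0.0501), and the meiotic copper regulator gene cuf2 rose by 1.02 ± 0.24, although not after a further quantile normalization (0.49, adjusted p = 0.141). The metallothionein gene zym1 read 9.08, 9.71 and 10.06 in wild type and 7.47 and 7.79 in the double mutant, without overlap (-1.99 ± 0.56, adjusted p = 0.0182). The iron permease gene fip1 read 10.74, 10.81 and 12.27 in wild type and 9.27 and 9.31 in the double mutant, and the siderophore transporter gene str1 read 11.86, 10.96 and 12.62 in wild type and 9.83 and 10.02 in the double mutant. Both fell (-1.98 ± 0.57 and -1.89 ± 0.51), as did php4 (-0.87), which encodes a repressor of iron-using genes, while the siderophore genes sib1 (0.63) and str2 (0.68) rose. Over the 13 iron uptake genes 2 rose and 3 fell, and the 23.1% that fell stand beside 9% of all features. Over the 11 genes of copper and zinc 2 rose and 1 fell (18.2% and 9.09%, beside 12.5% and 9% of all features). The list medians were -0.16 for iron uptake and 0.04 for copper and zinc, where the median of all features was 0.02.

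Of 18 genes of the oxidative stress defence 2 fell and none rose, and the 11.1% that fell stand beside 9% of all features and 15.7% of those with a signal from 12 to 13, the level of the list median. The sulfiredoxin gene srx1 read 12.76, 11.15 and 11.14 in wild type and 9.63 and 9.65 in Δgcn5 Δelp3. Wild-type replicate 1 was the highest array, and both double-mutant arrays were below the others as well (-2.04 ± 0.47, adjusted p = 0.00572). The mitochondrial thioredoxin gene trx2 fell by 1.00 (± 0.34), and the glutathione S-transferase gene gst2, at -2.09 ± 0.94, had an adjusted p of 0.123 that became 4.8e-05 without Δgcn5 replicate 2 and Δmst2 replicate 2. The regulator gene pap1 stood at -0.01. The glutathione transporter gene pgt1 read 12.42, 12.50 and 13.10 in wild type and 10.69 and 10.76 in the double mutant (-1.95 ± 0.47, adjusted p = 0.00771). None of the 14 heat shock genes passed the test. Of 16 genes of the core environmental stress response 3 rose (18.8%, beside 12.5% of all features) and none fell, with a median of -0.13. These were pma2 and the stress kinase genes sty1 (0.57) and wis1 (0.56).

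The signal of pma2, which encodes a plasma membrane proton pump, was 5.45, 5.40 and 5.66 in wild type and 7.43 and 7.30 in Δgcn5 Δelp3. The groups were well apart, and the change was 1.86 ± 0.39 (adjusted p = 0.00304). The gene gnr1, which encodes a G protein beta subunit, rose by 1.85 ± 0.44 (adjusted p = 0.00695).

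Among genes of nitrogen use some also rose and others fell. The ammonium transporter gene amt3 read 6.94, 7.45 and 7.37 in wild type and 10.07 and 9.95 in the double mutant, a rise of 2.76 ± 0.27 (adjusted p = 3.4e-06), whereas amt1 (0.03) and amt2 (0.13) did not pass the test. The NAD-dependent glutamate dehydrogenase gene gdh2 rose by 1.52 and the NADP-dependent gdh1 fell by 0.84 on the log2 scale. The oligopeptide transporter gene isp4 read 12.10, 11.50 and 12.64 in wild type and 10.30 and 10.34 in the double mutant, with no overlap (-1.76 ± 0.26, adjusted p = 1.4e-04). The amino acid permease gene isp5 stood at -2.41 ± 0.92 (adjusted p = 0.0707), with wild-type replicate 3 at 11.81 and the other wild-type arrays at 8.44 and 8.57, and passed without Δgcn5 replicate 2 and Δmst2 replicate 2 (adjusted p = 0.0296). Of the 18 genes of the list 3 rose and 2 fell (16.7% and 11.1%, beside 12.5% and 9% of all features), with a median of -0.07. Among 8 hexose transporter genes ght5, which encodes the high-affinity glucose transporter, fell by 0.87 (± 0.29, adjusted p = 0.0393), but did not pass after a further quantile normalization (-0.78, adjusted p = 0.0593). Without Δgcn5 replicate 2 and Δmst2 replicate 2, ght4 fell (-1.25, adjusted p = 0.0208) and ght3 rose (1.26, adjusted p = 0.0323) as well, and without wild-type replicate 2 besides none of the 8 passed. The signal of ght1 spread from 7.50 to 11.50 over the wild-type arrays alone.

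Reference genes and ribosomal protein genes changed little. None of the 7 reference genes passed the test, and act1, which encodes actin, stood at -0.10 ± 0.08. Of 119 ribosomal protein genes 9 fell and none rose, with a median of -0.09 and changes from -0.57 to 0.19, and the shares that fell (7.56%) and rose were no higher than the 9% and 12.5% of all features. Still, 78 of the 119 lay below the wild-type range and 7 above it, where 29% and 31.5% of all features did. The small shift was thus mostly downward, and the median of features of their level was -0.06. Of 11 histone genes 3 fell and 1 rose (27.3% and 9.09%, beside the same 9% and 12.5%). The changes ran from -0.65 ± 0.13 in hhf1, an H4 gene, to 0.33 ± 0.11 in htb1, the H2B gene. Of 16 genes under the G1/S factor MBF 2 fell (12.5%) and none rose. The fallers were mik1, which encodes a kinase that restrains Cdc2 (-1.51 ± 0.35), and the replication licensing gene cdt1 (-0.98 ± 0.29). Of features with a signal from 10 to 11, the level of the list median, 8.33% fell. The list median was -0.42, where the median of that level was 0.06, and 3 of the 16 exceeded the median of their level. After a further quantile normalization 4 fell, with a median of -0.58. Of the 16 wtf genes, a family of spore killers whose copies share sequence, 1 rose (6.25%), where 33.6% of features with a signal from 7 to 8 did. Their median was 0.38 at a median signal of 7.67, and none passed after a further quantile normalization.

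Among the partners of the deleted subunits, of 18 SAGA genes 4 rose, namely spt20 (0.94 ± 0.23), spt7 (0.78 ± 0.19), sgf73 (0.67 ± 0.18) and spt8 (0.58), and only gcn5 itself fell. The 22.2% that rose stand beside 14.2% of all features with a signal from 10 to 11, the level of the list median, and the median change was 0.14. The genes of the rest of the acetylation module, ada2 (0.01), ngg1 (0.18) and sgf29 (0.46), did not pass the test. Of 11 genes of Elongator and wobble modification elp2 (0.93 ± 0.21), elp6 (0.75) and urm1 (0.77) rose and only elp3 itself fell. The share of 27.3% stands beside the same 14.2%, and the median change was 0.21. Of the other 4 HAT genes none passed the test with all arrays, with mst2 at 0.78 ± 1.21 (adjusted p = 0.681) and hat1 at -0.67 ± 0.25 (adjusted p = 0.0661). Without Δgcn5 replicate 2 and Δmst2 replicate 2 both passed, mst2 rising (0.78 ± 0.26, adjusted p = 0.0344) and hat1 falling (adjusted p = 0.0228). Wild-type replicate 2 was the lowest wild-type array for mst2, at 8.73 beside 9.89 and 10.13. Without it as well the change was 0.36 ± 0.12 for mst2 (adjusted p = 0.0410) and -0.67 ± 0.23 for hat1 (adjusted p = 0.0449).

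**Figure D4:**
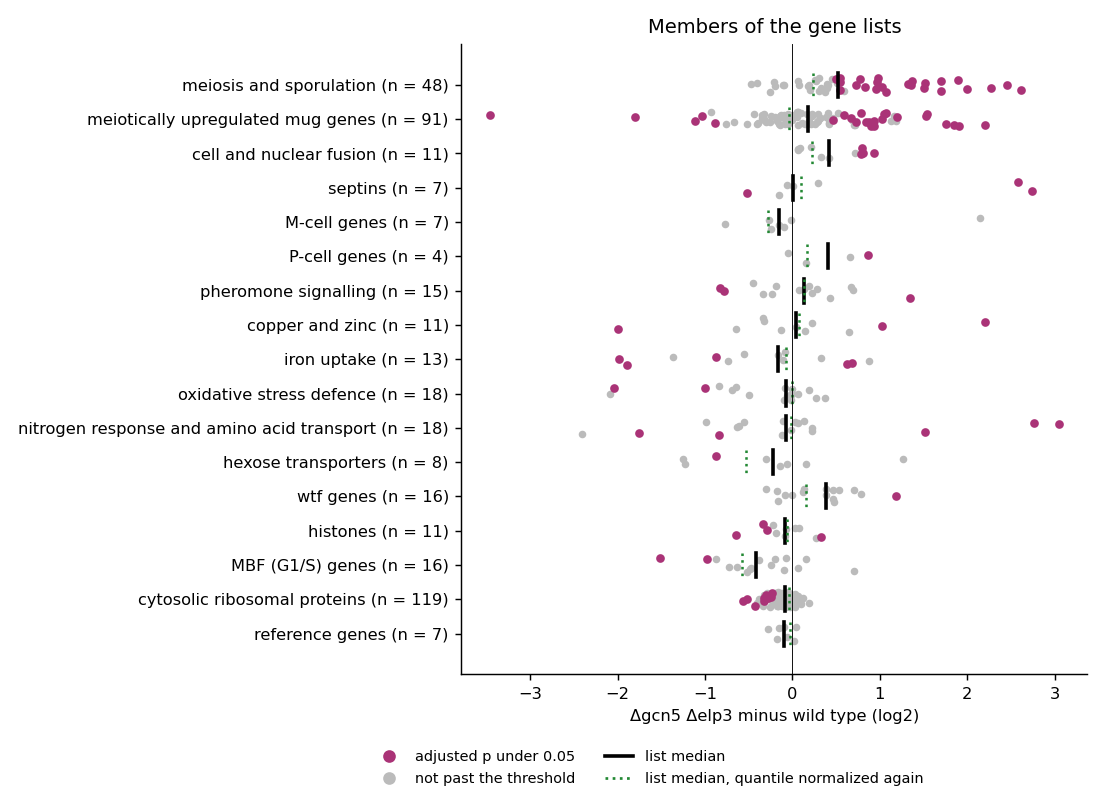
Change of each member of 17 gene lists in Δgcn5 Δelp3 against wild type (log2), with members past an adjusted p of 0.05 in purple. Black bars are list medians and dotted bars the medians after a further quantile normalization, which for meiosis and sporulation are 0.52 and 0.24.

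Features without a symbol held the largest rise of all. Feature 1774823_s_at read 7.28, 7.52 and 7.47 in wild type and 13.20 and 12.43 in Δgcn5 Δelp3, a change of 5.40 ± 0.20 (adjusted p = 3.4e-12), and its mean in Δelp3 was 12.22. Feature 1769886_s_at read 7.52, 9.89 and 9.20 in wild type and 13.78 and 13.07 in the double mutant (4.56 ± 0.65, adjusted p = 1.2e-04), while its mean in Δelp3 was 7.31. The first was thus high in Δelp3 and in the double mutant, and the second in the double mutant but not in Δelp3. The first read 7.48 to 7.61 in Δmst2 Δelp3, so it was not high in every strain without elp3. The second read 6.26 on the single array of Δgcn5 Δelp3 Δmst2, so it was not high in every strain without both genes. In the mst1 temperature-sensitive strain the second read 11.39 to 12.69. The array annotation used here names no gene for either.

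Few of the features called against wild type passed a test of their difference from Δelp3, whose arrays share the date of Δgcn5 Δelp3. The comparison of Δgcn5 Δelp3 with Δelp3 asks what the loss of gcn5 adds to the loss of elp3, and 24 features were higher and 30 lower in the double mutant at an adjusted p under 0.05 (0.48% and 0.6%). Of the 41 features up-regulated against wild type 6 differed from Δelp3, and of the 23 down-regulated 2 did. These counts were 12 and 4 without Δgcn5 replicate 2 and Δmst2 replicate 2, when 1.26% of all features were higher and 1.48% lower. The deleted gene gcn5 itself, intact in Δelp3, was among the 30 lower features and among the 2 and the 4. The wild-type comparison of Δelp3 and of Δgcn5 Δelp3 uses the same 3 wild-type arrays. In Δelp3 and Δgcn5 Δelp3 the changes were 3.86 and 3.64 for dak2, 2.62 and 2.76 for amt3, 2.22 and 2.20 for ctr4, 2.05 and 2.46 for spo6 and 1.93 and 2.00 for mei4. For these 5 genes the difference between the double mutant and Δelp3 did not pass the test, with values from -0.22 ± 0.35 for dak2 to 0.41 ± 0.24 for spo6. Over the 48 meiotic genes the median difference from Δelp3 was 0.07, and 1 of them was higher.

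That gene was mcp3, at 7.78, 6.71 and 6.82 in Δelp3 and 8.38 and 8.31 in Δgcn5 Δelp3. The double mutant was higher on both arrays, by 1.24 ± 0.26 (adjusted p = 0.0207). The alr2 signal was 7.78, 7.54 and 8.68 in Δelp3, also below both double-mutant arrays (0.97 ± 0.22, adjusted p = 0.0331). The glucose transporter gene ght5 read 12.39, 11.98 and 11.21 in Δelp3, 13.11 and 13.32 in Δgcn5 Δelp3 and 13.59, 14.13 and 14.53 in wild type. The double mutant thus lay between the 2 strains, above Δelp3 by 1.36 ± 0.29 (adjusted p = 0.0227) and below wild type, the latter a difference that did not pass after a further quantile normalization.

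For pma2 the Δelp3 arrays read 5.93, 5.64 and 5.61, close to wild type, and the double mutant was higher by 1.63 ± 0.39. This difference had an adjusted p of 0.0518, and of 4.1e-05 without Δgcn5 replicate 2 and Δmst2 replicate 2. The 2 Δgcn5 arrays that matched their label read 7.27 and 7.15, as high as the double mutant. In the same way spn6 read 8.93 and 9.35 in these Δgcn5 arrays and 7.60, 7.06 and 7.02 in Δelp3, and the double mutant lay 1.68 ± 0.71 above Δelp3 (adjusted p = 0.428, and 1.2e-04 without the 2 doubted arrays). The pgt1 signal was 11.38 and 11.23 in Δgcn5 and 12.32, 12.00 and 12.18 in Δelp3, and the double mutant lay 1.44 ± 0.47 below Δelp3 (adjusted p = 0.219, and 3.0e-04 without these arrays).

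Among the named features that differed between Δgcn5 Δelp3 and Δelp3 were several genes of central metabolism, and those described here were chosen after their values were seen. The citrate synthase gene cit1 read 13.91, 14.05 and 14.16 in wild type, 14.00, 13.88 and 13.81 in Δelp3 and 12.82 and 12.91 in Δgcn5 Δelp3. Of these 3 strains only the double mutant was low, with a difference of -1.03 ± 0.12 from Δelp3 (adjusted p = 7.9e-05) and of -1.17 ± 0.12 from wild type (adjusted p = 5.4e-06). The single array of Δgcn5 Δelp3 Δmst2 read 13.12, also below the arrays of wild type and Δelp3. The NADP-dependent glutamate dehydrogenase gene gdh1 read 14.16, 14.05 and 14.03 in Δelp3 and 13.55 and 13.44 in the double mutant, which was lower by 0.59 ± 0.12 (adjusted p = 0.0224).

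A second set was high in Δelp3 and near wild type in the double mutant. The ornithine carbamoyltransferase gene arg3 read 11.75, 11.76 and 12.23 in wild type, 12.87, 12.64 and 12.79 in Δelp3 and 11.46 and 11.51 in Δgcn5 Δelp3. The double mutant was lower than Δelp3 by 1.28 ± 0.19 (adjusted p = 8.5e-04). The copper amine oxidase gene cao1 and the pantothenate transporter gene liz1 had differences of -1.30 ± 0.23 and -1.07 ± 0.24 from Δelp3, and neither passed the test against wild type. The zinc transporter gene zrt1 went the other way, at 14.06, 14.00 and 13.72 in wild type, 12.36, 13.08 and 12.36 in Δelp3 and 14.20 and 14.08 in Δgcn5 Δelp3. Of these 3 strains it was low in Δelp3 only, and the double mutant was higher than Δelp3 by 1.54 ± 0.20 (adjusted p = 1.8e-04). The single array of Δgcn5 Δelp3 Δmst2 read 12.73 and those of Δmst2 Δelp3 12.82, 13.48 and 13.07, all below wild type. The zrt1 signal was thus not near wild type in every strain without gcn5 and elp3.

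**Figure D5:**
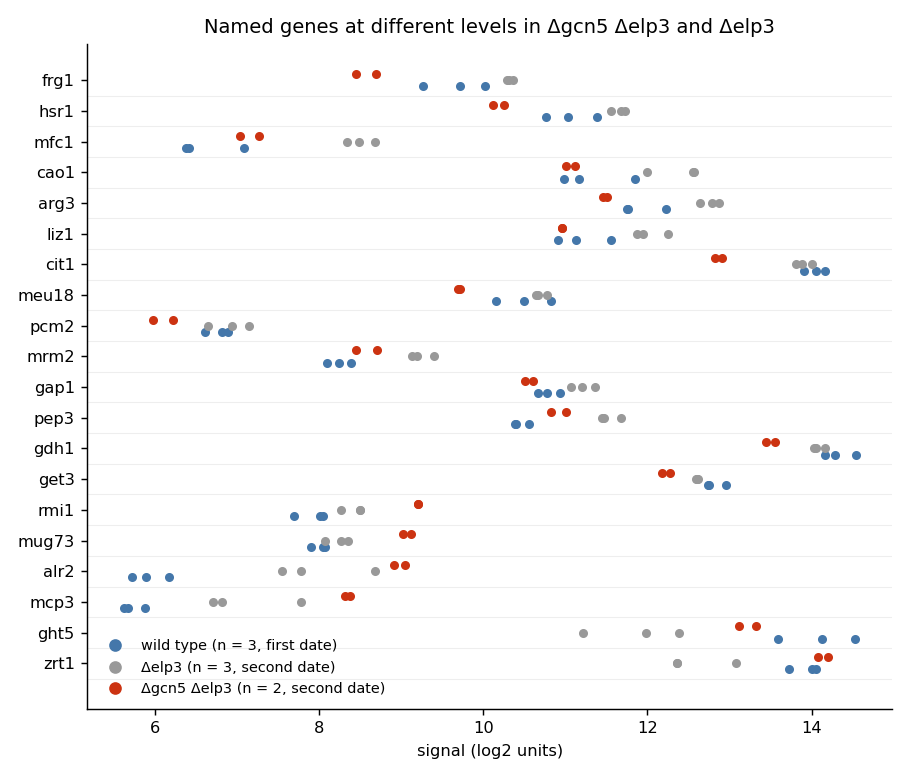
Signal on each array (log2 units) of the named genes other than gcn5 whose level differed between Δgcn5 Δelp3 and Δelp3 at an adjusted p under 0.05. For cit1 the double-mutant arrays read 12.82 and 12.91, below all Δelp3 and wild-type arrays, and for zrt1 they read 14.20 and 14.08, near wild type and above all Δelp3 arrays.

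Against Δmst2 Δelp3, the other double mutant on the second date, 75 features were higher and 59 lower in Δgcn5 Δelp3 at an adjusted p under 0.05 (1.5% and 1.18%). The subtelomeric gene grt1 read 5.97, 5.88 and 6.09 in Δmst2 Δelp3, at the level of wild type, and was higher in Δgcn5 Δelp3 by 3.03 ± 0.39 (adjusted p = 1.7e-04). The differences for mcp3 (1.30 ± 0.26, adjusted p = 0.00812), alr2 (0.89 ± 0.22, adjusted p = 0.0296) and pma2 (1.73 ± 0.39, adjusted p = 0.0211) also passed the test. In cit1 the difference was -1.09 (adjusted p = 3.1e-05) and in arg3 -1.36 (adjusted p = 3.1e-04).

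The last comparison asked whether the change in Δgcn5 Δelp3 departed from the sum of the changes in both single mutants on the log2 scale. With all arrays 10 features lay above the sum and 6 below it (0.2% and 0.12%), and without Δgcn5 replicate 2 and Δmst2 replicate 2 the counts were 25 and 41 (0.5% and 0.82%). The Δgcn5 strains are h-, and his3 read 6.18 and 5.94 on the Δgcn5 arrays that matched their label and 13.42 and 13.36 in Δgcn5 Δelp3. A his3 deletion marker is listed for a Δgcn5 strain and not for Δgcn5 Δelp3, and his3 read 13.46 in Δgcn5 Δelp3 Δmst2, so its low signal did not go with the loss of gcn5. The departures without the doubted arrays included his3 (7.32) and M-cell genes such as mam2 (-3.38), and for the M-cell genes the loss of gcn5 and the mating type of the Δgcn5 strain cannot be told apart in this comparison. The named features with all arrays were cit1 (-0.88, adjusted p = 0.0137), zrt1 (1.65, adjusted p = 0.00316) and gap1 (-0.86, adjusted p = 0.00662), which encodes the GTPase-activating protein of Ras1. For cit1 the changes were -1.17 in Δgcn5 Δelp3, -0.14 in Δelp3 and -0.20 in Δgcn5 without its replicate 2. Of the leading rises, tlh2 and dak2 lay below the sum without the doubted arrays (-3.75 ± 0.56, adjusted p = 8.9e-04, on the tlh2 feature with the largest change and -1.93 ± 0.38, adjusted p = 0.0135, for dak2), and alr2 lay above it (1.34 ± 0.32, adjusted p = 0.0495). The same tests with all arrays had adjusted p of 1.00, 0.397 and 0.0809.

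The date was also entered as a covariate, which can be estimated only from the 3 arrays of Δgcn5 Δmst2. All 41 and all 23 called features kept their direction, and 22 and 4 of them passed the adjusted p. Over all features 108 rose and 26 fell (2.16% and 0.52%). Those that passed included mcp3 (2.70), alr2 (3.04), dak2 (3.99), amt3 (2.91), spo6 (2.27), mug97 (2.06), mei4 (2.44), grt1 (3.01) and ctr4 (2.20), whereas tlh2 (4.57, 4.42 and 3.47 on its 3 features), spn6 (2.88), mug15 (-3.52), srx1 (-1.92) and pgt1 (-1.71) did not (adjusted p from 0.0881 to 0.322). The deleted gene gcn5 did not pass either (-5.60 ± 2.35, adjusted p = 0.246). Of the 48 meiotic genes 7 rose and none fell in this fit, with a median of 0.48.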

How the data were processed

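RNA was hybridised to Affymetrix Yeast Genome 2.0 arrays, 1 colour and 1 sample an array. The deposited values are log2 signals that the authors made with robust multi-array averaging (background correction, quantile normalization and summary of probes) (software versions not given in the sources used here). Ribosomal RNA and other controls (29 of 5028 probe sets) were left out. Symbols came from the array annotation, brought up to date through the RefSeq table of ASM294v3: 2917 probe sets had 1 symbol, 20 several and 2062 none.

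A limma model (limma 3.58.1, R 4.3.3) with a mean for each of the 9 strains was fitted to all 24 arrays, so that 15 residual degrees of freedom gave 1 estimate of the spread, and p-values were two-sided and adjusted by the Benjamini-Hochberg method over 4999 features. The number of arrays limits the precision. The threshold of 3.25 in the methods was read as a fold. The fit was tested on simulated data. Where a gene had several probe sets, lists used the one with the highest mean signal.

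Genes were named by rule: gcn5 and elp3, up to 20 largest rises and 20 largest falls with 1 symbol, and in each list up to 4 members with the largest change. The rises and falls were taken from features past both thresholds whose arrays did not overlap between the groups. The lack of overlap in these genes was thus part of their choice and is no added support. Other members named as examples, features without a symbol and the genes named against Δelp3 were chosen after their values were seen. The members and lists were chosen with earlier results of these data known, and support nothing as independent evidence. Promoter motifs were planned and not run, since no promoter sequence was used here. Alternatives were a further quantile normalization, a shift to a common median, date and replicate number as terms, array weights, other thresholds and arrays left out.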

Additional observations from a re-analysis of the deposited data

Results flagged for a closer look

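With all arrays, 10 features lay above and 6 below the sum of the single-mutant changes, by a test of that departure itself. The 3 with a symbol were zrt1, cit1 and gap1.

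The 18S and 28S ribosomal RNA probe sets, which stood outside the comparisons, were higher in Δgcn5 Δelp3 than in wild type. They were flagged because both double-mutant arrays lay above all wild-type arrays. The 5.8S probe set did not meet this rule, at 13.18, 13.79 and 12.43 in wild type and 13.76 and 13.65 in Δgcn5 Δelp3. For the 3′, middle and 5′ probe sets the log2 differences were 5.85, 3.48 and 2.76 for 18S ribosomal RNA and 3.77, 5.56 and 4.50 for 28S ribosomal RNA. The 18S and 28S probe sets were high on all 10 arrays of the second date (11.91 to 14.95) and, among the 14 arrays of the first date, on replicate 3 of the mst1 temperature-sensitive strain (11.65 to 14.66). Their part in the other results was not tested.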

How the results depend on the processing

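None of the 62 named features (60 genes) past the threshold against wild type changed direction under the alternatives run. With the date as a covariate, which rests on 3 arrays of Δgcn5 Δmst2, 39 features were up-regulated and 4 down-regulated, 108 rose and 26 fell by adjusted p alone, and 14 of these 62 features still passed. Of the 41 and 23 features called without this covariate, 21 and 4 were still called. Without Δgcn5 replicate 2 and Δmst2 replicate 2, the counts past both thresholds were 28 against Δelp3 and 53 against Δmst2 Δelp3 (14 and 28 with all arrays), and 66 features departed from the sum of the single mutants (16 with all arrays). Without wild-type replicate 2 as well, 54 departed. Array weights, whose estimation stopped before convergence, gave 1575 rises and 1370 falls by adjusted p alone. Lower fold thresholds gave 316 and 180 features at 1.7-fold, 179 and 95 at 2-fold, and 623 and 450 by adjusted p alone.

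Leaving out 1 array at a time gave 39 to 44 up-regulated and 9 to 24 down-regulated features, 225 to 527 rises and 118 to 392 falls by adjusted p alone, 7 to 15 features against Δelp3, 15 to 34 against Δmst2 Δelp3 and 12 to 20 departures from the sum. The lowest counts of down-regulated features and of those against Δelp3 came without Δgcn5 Δelp3 replicate 2, which leaves 1 array that is assumed to vary like the other strains. The lowest counts of rises and falls by adjusted p alone and of those against Δmst2 Δelp3 came without its replicate 1.

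A further quantile normalization gave 31 features in each direction in place of 41 and 23, and moved the median of 13 of 28 lists. With the replicate number as a replicate block, 40 and 22 features were called, 566 rose and 420 fell, 13 and 29 were called against Δelp3 and Δmst2 Δelp3, and 16 departed from the sum. Same-numbered arrays did not deviate together (r = -0.009 and -0.031), so they share only a number. Using only the 5 arrays gave 43 and 21 features, the date as a random block 40 and 22, and only features with a mean signal of at least 7 gave 30 and 22. The deposited values hold no background or detection call for a probe set, so it is not known which dim features were above background.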
